A study of Homo sapiens with 24 samples.

Results

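A list of 40 genes whose proteins build ribosomes in the nucleolus was followed in MDA686TU cells, an established line from a squamous carcinoma of the head and neck. The members were chosen by gene symbol, and all 40 were matched to 1 gene each among the 60617 genes of the count table. They lie on 16 chromosomes, with at most 6 on one. The line was left untreated (NT, the control) or received EGCG (epigallocatechin gallate, a green tea catechin) at 40 µM, resveratrol (a stilbene found in grapes) at 15 µM, or the combination of EGCG at 40 µM and resveratrol at 15 µM, each for 24 h. All groups share the medium with serum, and 6 libraries of polyadenylated RNA were sequenced per group, 24 in all. The resveratrol stock was made in DMSO, whereas EGCG was prepared in water. The sources used here do not say whether control cells received DMSO, so resveratrol and its solvent cannot be told apart. The replicates are described as 6 per group without naming separate cultures, so the p-values measure the spread between these libraries of 1 cell line, which may be technical.

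Ribosomes are assembled in the nucleolus. RNA polymerase I transcribes a long precursor rRNA, small nucleolar ribonucleoproteins (snoRNPs) guide its methylation and pseudouridylation, and a large set of assembly factors folds, cuts and exports the small and the large subunit. Growing carcinoma cells make many ribosomes, and the transcription factor MYC is known to raise the transcription of many of these genes.

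The libraries held 7034872 to 11735574 counts, and 15476 genes, all 40 members among them, passed the filter on low counts and were tested. In every group, the share of mitochondrial counts separated replicates 1 to 3 from replicates 4 to 6, and was 0.249% to 0.326% in the former and 0.448% to 0.775% in the latter. Neither the labels nor the methods name a batch, and each of these sets holds 3 libraries of every group. Markers of squamous epithelium were abundant in the control libraries (KRT5 at 1275 FPKM and TP63 at 53.7 FPKM). Of 15 markers of other cell types, 6 (PTPRC, CD3E, PECAM1, DCN and MYH2 among them) had at most 1 count in any library and 3 had at most 4. The other 6 were detected. COL1A1, a fibroblast collagen that carcinoma cells can also express, was at 13.8 FPKM in the control with 753 to 1951 counts per library, while COL1A2 had 12 to 33, LUM 3 to 12, CD68 1 to 11, VWF 2 to 20 and PMEL 1 to 19 counts. In bulk RNA, fewer cells of a state and less RNA per cell cannot be told apart.

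In the control, the level per gene length spanned a wide range. NPM1, the abundant nucleolar chaperone nucleophosmin, had the highest FPKM of the members at 349 ± 11.6 (SD, n = 6). NCL, nucleolin, followed at 194 ± 5.41 FPKM, and DDX21, a nucleolar RNA helicase, at 136 ± 3.51 FPKM. NOLC1, a chaperone of snoRNPs, was at 110 ± 2.62 FPKM, and FBL, the methyltransferase of box C/D snoRNPs, at 86.9 ± 2.99 FPKM. The lowest levels were those of DDX10, a helicase of the small subunit pathway, at 4.33 ± 0.129 FPKM and of NOP2, an rRNA methyltransferase, at 3.58 ± 0.407 FPKM. NOP2 overlaps another gene on its own strand, and how reads shared by genes were counted is not given. For each of these first 5, the lowest library lay above the highest library of the next gene in the order. The middle of the order was tighter. NOP58 at 58.3 FPKM, MRTO4 at 58.2 FPKM and PES1 at 57.0 FPKM overlapped in their libraries. RNA polymerase I genes were at lower levels, led by TCOF1 at 32.0 ± 0.828 FPKM.

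The promoters of the members were read from RefSeq, from 250 bases before to 50 bases after the start site, on GRCh38.p14. The table held 34 of the 40 members and lacked BOP1, NOLC1, NOP58, RRP12, RRS1 and TCOF1. The letters CACGTG, the canonical E-box to which MYC and its partner MAX can bind, were searched. The motif is its own reverse complement, so both strands are covered by 1 search. It was found in 11 of 34 member promoters (32.4%), in 31 of 110 promoters of other genes of the pathway (28.2%), in 1052 of 10379 promoters of tested genes (10.1%) and in 2030 of all 27305 promoters of this length (7.43%). The promoters of the 5 members that fell most with the combination and of RRN3, the member with the highest log2 fold change there, are shown because these are the ends of the response described later, with CACGTG in capitals where it occurs. Of the 5 largest falls, 2 promoters hold the motif and 3 do not. UTP20 (chr12:101279855-101280154, plus strand) holds it 10 bases before and WDR43 (chr2:28894417-28894716, plus strand) 3 bases after the start site. NPM1 (chr5:171387599-171387898, plus strand), DDX10 (chr11:108664819-108665118, plus strand) and NOP56 (chr20:2652382-2652681, plus strand), all among these 5, hold none in this window. RRN3 (chr16:15094286-15094585, minus strand), which did not pass the test in any comparison with the control, holds none either. The NPM1 window lies inside its annotated gene, which begins before it, so the sequence around that earlier start was not searched.
NPM1: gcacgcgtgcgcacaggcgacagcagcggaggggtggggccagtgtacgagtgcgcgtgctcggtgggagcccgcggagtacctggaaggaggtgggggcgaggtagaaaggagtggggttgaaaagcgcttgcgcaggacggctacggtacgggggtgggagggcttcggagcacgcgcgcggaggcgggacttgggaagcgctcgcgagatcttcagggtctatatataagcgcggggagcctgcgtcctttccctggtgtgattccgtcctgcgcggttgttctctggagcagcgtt
DDX10: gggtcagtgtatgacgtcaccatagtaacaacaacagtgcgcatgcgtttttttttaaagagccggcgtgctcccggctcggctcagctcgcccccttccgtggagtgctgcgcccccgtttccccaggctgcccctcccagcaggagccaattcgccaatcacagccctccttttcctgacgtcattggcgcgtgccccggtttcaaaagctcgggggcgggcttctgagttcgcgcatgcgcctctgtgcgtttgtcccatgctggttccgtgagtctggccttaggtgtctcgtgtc
UTP20: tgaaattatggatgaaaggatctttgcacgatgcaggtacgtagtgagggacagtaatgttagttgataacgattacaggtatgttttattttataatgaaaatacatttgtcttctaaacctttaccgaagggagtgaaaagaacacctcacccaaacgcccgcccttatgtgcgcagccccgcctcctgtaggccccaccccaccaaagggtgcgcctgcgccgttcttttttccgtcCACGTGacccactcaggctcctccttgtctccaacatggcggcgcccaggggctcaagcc
NOP56: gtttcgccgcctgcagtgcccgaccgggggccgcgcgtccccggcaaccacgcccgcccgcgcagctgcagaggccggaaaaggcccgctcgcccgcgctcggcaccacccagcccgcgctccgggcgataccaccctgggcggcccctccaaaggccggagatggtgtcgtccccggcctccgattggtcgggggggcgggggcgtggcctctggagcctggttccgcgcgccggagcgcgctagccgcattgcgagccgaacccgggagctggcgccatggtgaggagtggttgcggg
WDR43: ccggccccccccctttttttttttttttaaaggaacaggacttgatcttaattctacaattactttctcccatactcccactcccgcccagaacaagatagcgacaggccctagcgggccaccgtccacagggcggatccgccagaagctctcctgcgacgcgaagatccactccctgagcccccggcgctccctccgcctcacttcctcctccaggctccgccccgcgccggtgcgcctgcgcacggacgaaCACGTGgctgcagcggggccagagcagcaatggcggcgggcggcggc
RRN3: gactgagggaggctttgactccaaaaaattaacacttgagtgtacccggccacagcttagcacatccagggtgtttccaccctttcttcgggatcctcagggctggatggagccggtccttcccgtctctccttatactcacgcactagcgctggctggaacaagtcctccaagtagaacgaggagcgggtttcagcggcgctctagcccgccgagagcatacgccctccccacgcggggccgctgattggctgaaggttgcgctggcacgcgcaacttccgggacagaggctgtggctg
A match is a description of the letters and not a bound site. With the combination, the median log2 fold change was -0.44 over the 11 members with the motif and -0.34 over the 23 without it. The values overlapped, from -0.69 (UTP20) to -0.13 (NOP14) with the motif and from -0.83 (NPM1) to 0.04 (RRN3) without it. The difference between the medians was not tested.

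Resveratrol lowered nearly the whole list. Of the 40 genes, 38 fell and 0 rose against the control (edgeR's quasi-likelihood test on all tested genes, an unadjusted p under 0.05 and a Benjamini-Hochberg adjusted p under 0.1, the rule used throughout). Over all 15476 tested genes, 28.0% fell and 28.9% rose. The median log2 fold change of the members was -0.31, a level 19.3% lower, against 0.00 over all tested genes, and 13.0% of all tested genes lay below the members' median. The highest library with resveratrol lay below the lowest control library for 31 of the 40 members, against 15.8% of all tested genes (compared in log2 CPM, the scaled log count). The changes were broad but small, since 3 members fell by more than 1.5-fold (2.53% of all tested genes) and 0 by more than 2-fold.

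**Figure D1:**
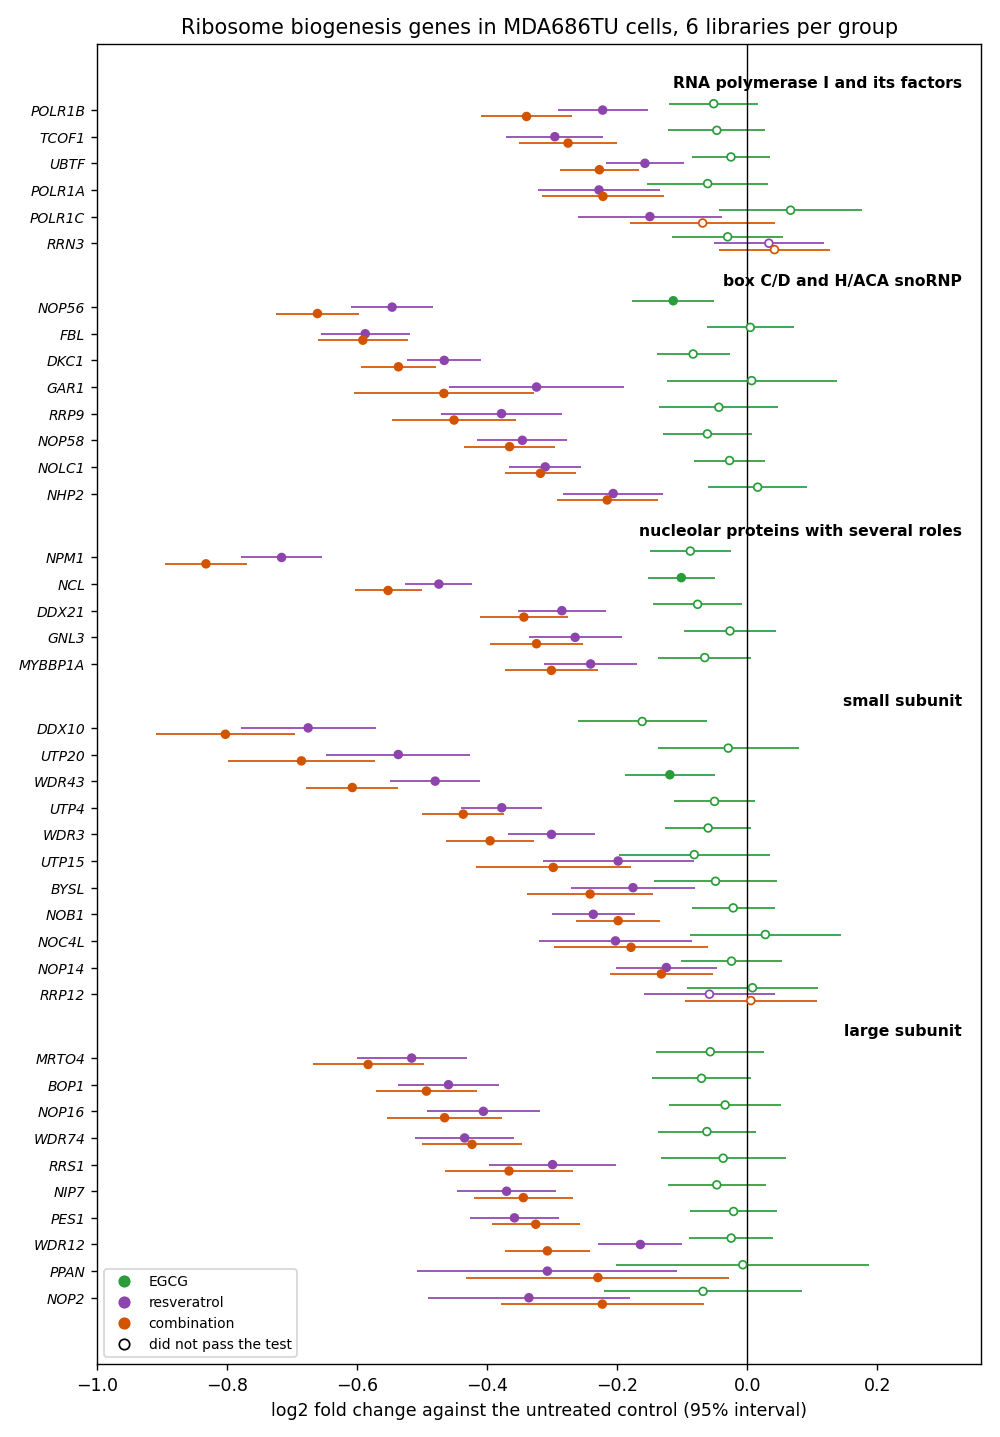
Log2 fold changes of the 40 genes against the untreated control (x axis, points with 95% intervals from edgeR, 6 libraries per group), grouped by role and ordered within each role by the change with the combination. Filled points passed the test and open points did not; the resveratrol and combination points lie left of 0 for nearly all genes, and the EGCG points lie close to 0.

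NPM1 (chr5:171387116-171411810, plus strand, GRCh38) fell most with resveratrol. Its normalized counts were 11182 to 12062 (median 11674) in the control and 6633 to 7344 (median 7061) with resveratrol. The groups were far apart, with a log2 fold change of -0.72 ± 0.03 (SE) and p = 0.00216 in a two-sided exact permutation test, the smallest p that 6 against 6 libraries can give. DDX10 (chr11:108665058-108940999, plus strand) had 312 to 341 normalized counts (median 324) in the control and 187 to 215 (median 208) with resveratrol, again without overlap, for a log2 fold change of -0.68 ± 0.05. FBL (chr19:39834458-39846379, minus strand) went from 1557 to 1696 (median 1612) in the control to 1025 to 1105 (median 1083) with resveratrol, a log2 fold change of -0.59 ± 0.03. Both groups of libraries were separate for FBL too.

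The median fall differed between the roles, but the ranges of their members overlapped and the roles were not compared in a test. With resveratrol the log2 fold changes ran from -0.68 to -0.06 in the small subunit pathway and from -0.30 to 0.03 for RNA polymerase I and its factors. Members at higher levels tended to fall more, with a Spearman rank correlation of -0.404 between control FPKM and this change. In the group of box C/D and H/ACA snoRNP proteins, all 8 fell with resveratrol, with a median log2 fold change of -0.36. The members include core proteins of box C/D snoRNPs, NOP56 at -0.55 (95% interval -0.61 to -0.48), NOP58 at -0.35 (-0.42 to -0.28) and FBL at -0.59 (-0.66 to -0.52). All of these fell, and the interval of NOP58 lay apart from those of its partners. Among H/ACA proteins, DKC1, the pseudouridine synthase dyskerin, fell by 0.47 on the log2 scale, GAR1 by 0.32 and NHP2 by 0.21. NOLC1 went from 3732 to 3976 normalized counts (median 3782) to 2954 to 3200 (median 3063), without overlap. RRP9, a protein of the snoRNP that directs early cuts of the precursor, had a log2 fold change of -0.38.

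All 10 members of the large subunit pathway also fell, with a median of -0.36. PES1, BOP1 and WDR12 form one complex needed for large subunit rRNA processing, and their log2 fold changes with resveratrol were -0.36, -0.46 and -0.16. BOP1, the member of this group with the highest level per length, had 2132 to 2370 normalized counts (median 2192) in the control and 1538 to 1631 (median 1611) with resveratrol. The groups did not overlap. MRTO4, which holds the place of the ribosomal stalk during assembly, fell by 0.52 on the log2 scale, WDR74 by 0.43, NOP16 by 0.41 and NIP7 by 0.37.

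In the small subunit pathway 10 of 11 members fell, with a median of -0.24 and a wide spread. Behind DDX10 came UTP20, a large scaffold protein of the small subunit processome, at -0.54, and WDR43 at -0.48. UTP4 and UTP15, partners of WDR43 in a subcomplex that joins rRNA transcription and processing, had log2 fold changes of -0.38 and -0.20. NOB1, the nuclease that makes the mature end of the small subunit rRNA, had 1073 to 1179 normalized counts (median 1104) in the control and 924 to 972 (median 944) with resveratrol, and the libraries did not overlap. NOP14 fell by 0.12 on the log2 scale and RRP12, an export factor, had a value of -0.06 that did not pass the test.

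The 5 nucleolar proteins with several roles all fell, from NPM1 at -0.72 and NCL at -0.47 to DDX21 at -0.29, GNL3 (nucleostemin) at -0.26 and MYBBP1A at -0.24. The group of RNA polymerase I and its factors had the median nearest to 0, -0.19, with 5 of 6 members lower. TCOF1, the nucleolar phosphoprotein treacle, went from 3076 to 3295 normalized counts (median 3191) to 2419 to 2723 (median 2610), without overlap. The largest subunits POLR1A and POLR1B had log2 fold changes of -0.23 and -0.22, and UBTF, which binds the rRNA gene promoter, of -0.16. POLR1C, a subunit shared with RNA polymerase III, had a log2 fold change of -0.15, which no longer passed the test without control replicate 5 (-0.10) or without resveratrol replicate 1 (-0.10). RRN3, the factor that brings RNA polymerase I to its promoter, had 800 to 881 normalized counts (median 813) in the control and 759 to 898 (median 850) with resveratrol, and these ranges overlapped.

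**Figure D2:**
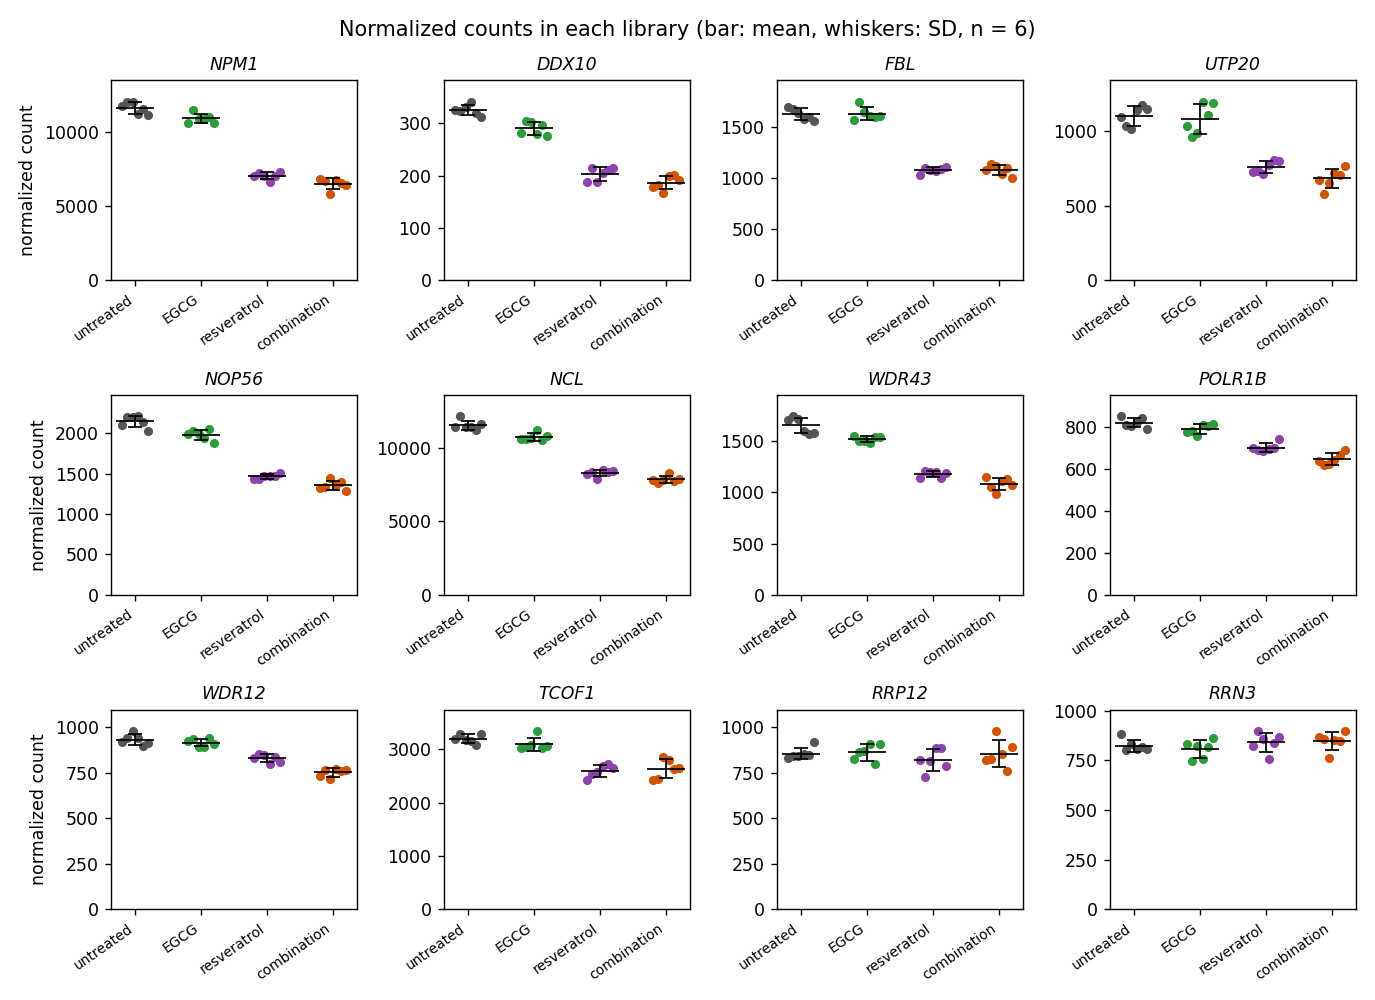
Normalized counts (y axis, from 0) of 12 members in each of the 24 libraries by group, with the mean and SD of 6 libraries. All plotted members except RRP12 and RRN3 have control ranges above, and apart from, those with resveratrol and with the combination. RRP12 and RRN3 overlap in all 4 groups.

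The combination also lowered nearly the whole list. Against the control, 37 of 40 members fell and 0 rose, while 29.9% of all tested genes fell and 29.9% rose. The median was -0.34, a level 21.1% lower, and 33 members had all combination libraries below all control libraries, against 16.3% of all tested genes. By role, 4 of 6 RNA polymerase I genes fell (median -0.22), 8 of 8 snoRNP genes (-0.46), 5 of 5 with several roles (-0.34), 10 of 11 of the small subunit (-0.30) and 10 of 10 of the large subunit (-0.36). Of the members, 6 fell by more than 1.5-fold, against 3.81% of all tested genes, and the largest falls were again those of NPM1 and DDX10. This comparison and the one with resveratrol share the control libraries.

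NPM1 had 5832 to 6812 normalized counts (median 6668) with the combination, below every control library, for a log2 fold change of -0.83 ± 0.03 (edgeR, Benjamini-Hochberg adjusted p = 1.19e-22). Its mean level was 43.9% lower than in the control. DDX10 had 167 to 201 (median 187) with the combination, a log2 fold change of -0.80 ± 0.05. UTP20 went from 1013 to 1175 normalized counts (median 1116) in the control to 578 to 763 (median 690), a log2 fold change of -0.69 ± 0.06, and its groups did not overlap. NOP56 followed at -0.66, WDR43 at -0.61, FBL at -0.59 and MRTO4 at -0.58.

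The 3 members that did not pass the test with the combination were POLR1C, RRN3 and RRP12, with log2 fold changes of -0.07, 0.04 and 0.01. RRN3 had 764 to 897 normalized counts (median 855) with the combination and RRP12 had 760 to 979 (median 839), both overlapping the control range. The 95% intervals of these differences were -0.04 to 0.13 for RRN3 and -0.10 to 0.11 for RRP12. PPAN, a large subunit factor with few counts, fell with a log2 fold change of -0.23, but not without control replicate 6 (-0.19) or combination replicate 1 (-0.16). DDX21 had its lowest normalized count, 3969, in combination replicate 3, and its log2 fold change was -0.34 with and -0.30 without that library.

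**Figure D3:**
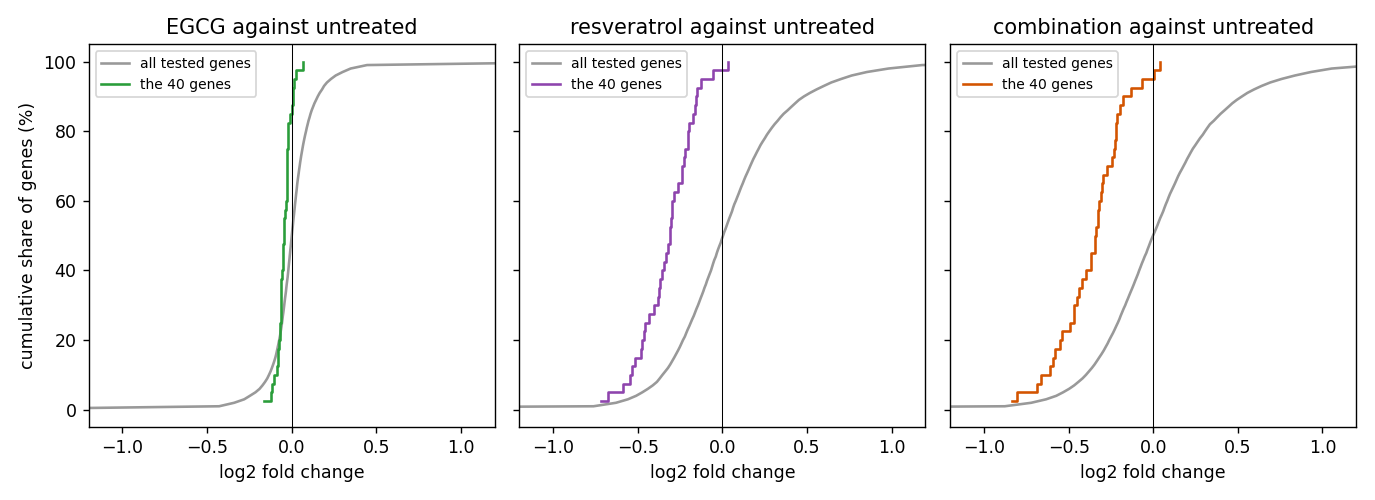
Cumulative share of genes (y axis, %) against the log2 fold change (x axis) for the 40 genes (coloured steps) and for all 15476 tested genes (grey line), with 1 panel per treatment against the untreated control. With resveratrol (medians -0.31 and 0.00) and the combination (-0.34 and 0.00) the steps lie left of the grey line, while with EGCG they are steeper than the grey line, cross it at low values and differ little in median (-0.05 and 0.00).

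Summed over the list, the 40 genes took 0.831% to 0.859% of all counts in the control libraries (median 0.843%). The share was 0.803% to 0.819% (median 0.810%) with EGCG, 0.671% to 0.685% (median 0.679%) with resveratrol and 0.647% to 0.664% (median 0.648%) with the combination. The ranges of the 4 groups did not overlap. NPM1 and NCL weigh most in this sum, which is given as a description.

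**Figure D4:**
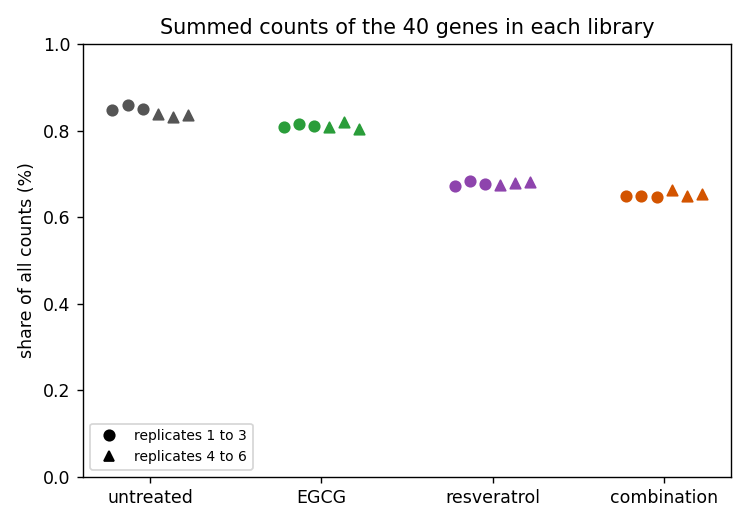
Summed raw counts of the 40 genes as a share of all counts (y axis, %, from 0) in each library of the 4 groups, with circles for replicates 1 to 3 and triangles for replicates 4 to 6. Both sets of replicates show the same order, from about the control median of 0.843% down to the combination median of 0.648%.

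Both sets of replicates gave the falls with resveratrol on their own. In replicates 1 to 3, 36 members fell with resveratrol (median -0.33) and 36 with the combination (-0.38), against 22.6% and 25.3% of all genes tested there. In replicates 4 to 6, 36 fell with resveratrol (-0.30) and 35 with the combination (-0.30), against 23.4% and 24.9%. No member rose in either set. Scaling by library size alone, in place of the trimmed mean of M values, moved the median of all tested genes to 0.09 with resveratrol and 0.08 with the combination, and the split of all genes from 4466 higher and 4341 lower to 6147 and 2857 with resveratrol, and from 4633 and 4625 to 6041 and 3311 with the combination. The members' medians were then -0.22 and -0.26, with 33 lower and 1 higher (RRN3, at 0.12) in each comparison.

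Against EGCG alone, the combination again lowered 37 members and raised 0, with a median of -0.30, against 29.1% of all tested genes lower and 28.7% higher. The groups were apart for 30 members (14.0% of all tested genes). NOP2, RRN3 and RRP12 did not pass the test. Under library size alone the split of all genes went from 4440 higher and 4510 lower to 5737 and 3250, with 33 members lower and 1 higher.

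EGCG alone changed few members. Against the control 3 fell and 0 rose, with 0.859% of all tested genes lower and 0.905% higher. An unadjusted p under 0.05 was reached by 7 members and by 10.1% of all tested genes. The 3 were NOP56, NCL and WDR43. NCL, an abundant protein that binds precursor rRNA, had 11193 to 12126 normalized counts (median 11415) in the control and 10551 to 11205 (median 10610) with EGCG, a log2 fold change of -0.10 ± 0.03 (edgeR, Benjamini-Hochberg adjusted p = 0.0288). The ranges of NCL overlapped by the lowest control and the highest EGCG library on this scale, and were apart in log2 CPM. NOP56 had 2035 to 2212 (median 2172) in the control and 1881 to 2054 (median 1998) with EGCG, with a small overlap and a log2 fold change of -0.11 ± 0.03 (edgeR, Benjamini-Hochberg adjusted p = 0.0561). WDR43 had 1567 to 1740 (median 1652) in the control and 1482 to 1547 (median 1519) with EGCG, without overlap, and a log2 fold change of -0.12 ± 0.03 (edgeR, Benjamini-Hochberg adjusted p = 0.0782).

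The median over all 40 members with EGCG was -0.05, a level 3.20% lower, and 34 of them had values below 0. Of all tested genes, 28.8% lay below the members' median. DDX10 had the lowest estimate, -0.16, with 276 to 304 normalized counts (median 289), all below the control range, but its adjusted p was 0.116 (edgeR, Benjamini-Hochberg), past the limit. For 4 members the EGCG libraries were separate from and below those of the control in log2 CPM, against 0.801% of all tested genes. The calls with EGCG depend on single libraries. Their number was 0 without control replicate 2, 1 without control replicate 3, EGCG replicate 3 or EGCG replicate 4, and 5 without combination replicate 3, which enters only through the shared spread, scaling and filter. It was 0 within either set of replicates, where 0.249% (replicates 1 to 3) and 0.298% (replicates 4 to 6) of all genes fell.

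The effect of EGCG in the presence of resveratrol was measured by the combination against resveratrol, which shares no library with EGCG against the control. Here 7 members fell and 0 rose, against 3.86% of all tested genes lower and 4.01% higher, and the median was -0.06. The 7 were NCL (-0.08), WDR3 (-0.09), NOP56 (-0.11), NPM1 (-0.12), POLR1B (-0.12), WDR43 (-0.13) and WDR12 (-0.14). All 3 members called with EGCG alone were among them. The overlap of these comparisons over all tested genes was not counted, and both come from the same fit with a shared spread and scaling. WDR12 had 798 to 852 normalized counts (median 834) with resveratrol and 714 to 773 (median 763) with the combination, and was the 1 member whose groups did not overlap (1.40% of all tested genes). Its log2 fold change was -0.14 ± 0.03 (edgeR, Benjamini-Hochberg adjusted p = 0.00544), and p was 0.00216 in the exact permutation test. POLR1B had 682 to 742 (median 695) with resveratrol and 619 to 689 (median 640) with the combination, with overlapping ranges. The count was 4 without resveratrol replicate 6 or combination replicate 2, 4 in replicates 1 to 3 (2.83% of all genes lower) and 0 in replicates 4 to 6 (1.07%).

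NOP56, NCL and WDR43 each hold snoRNA genes in their introns. In the annotation 8 members hold a snoRNA or a related small Cajal body RNA on their own strand, namely DKC1, GNL3, NCL, NOP56, NOP58, POLR1C, PPAN and WDR43. Their median log2 fold changes were -0.07 after EGCG, -0.41 after resveratrol and -0.45 after the combination, against -0.05, -0.30 and -0.33 for the 32 others. The small RNAs themselves had a mean of at most 0.08 counts per library. The libraries were made from polyadenylated RNA, so these counts do not measure the levels of the small RNAs. This grouping was made after the values were seen and was not tested.

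The interaction of the agents, the change with the combination beyond the sum of both single changes on the log2 scale, was called for 0 of 40 members by edgeR, with 1 at an unadjusted p under 0.05, and for 0 by DESeq2, also with 1. Over all tested genes 0.265% were called, 0.0582% with a value below 0 and 0.207% above 0, and 7.72% had an unadjusted p under 0.05, so the 1 member is a smaller share than that of all genes. The median of the members was 0.00, with 20 values below and 20 above 0. The 1 member was WDR12, with an interaction of -0.12 (95% interval -0.21 to -0.03). The estimates ran from -0.15 for GAR1 to 0.18 for NOP2, and the interval of NOP2, which has few counts, was -0.04 to 0.40. GAR1 had its lowest normalized count, 175, in combination replicate 3. Its log2 fold change with the combination against the control was -0.47 with and -0.38 without that library.

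Another 129 genes of the pathway, listed by role, were all tested. The list was written with earlier results of these data known, so its direction is not independent evidence. With resveratrol 98 fell and 3 rose (median -0.21), against 28.0% lower and 28.9% higher over all tested genes, and with the combination 104 fell and 4 rose (median -0.25), against 29.9% in either direction. With EGCG alone 2 of the 129 fell and 0 rose, and 7 fell and 0 rose in the combination against resveratrol. These counts are near the shares of all tested genes that fell, 0.859% and 3.86%. Among those that fell with the combination were UTP18 of the small subunit processome (-0.76), the large subunit factors EBNA1BP2 (-0.59) and BRIX1 (-0.58), MPHOSPH10 (-0.51), the exosome helicase MTREX (-0.50), the RNA polymerase I subunit POLR1G (-0.49), EXOSC5 of the RNA exosome (-0.41), the snoRNP assembly factors RUVBL1 (-0.40) and NUFIP1 (-0.39), and TAF1D (-0.39). The 4 that rose were EFL1 (0.35), a GTPase that acts on the large subunit in the cytoplasm, TAF1C (0.16), ZNF622 (0.12) and DDX49 (0.11).

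The RNA of MYC itself moved little. Its normalized counts were 3143 to 3547 (median 3257) in the control, 2990 to 3435 (median 3340) with EGCG, 3050 to 3123 (median 3089) with resveratrol and 3085 to 3416 (median 3248) with the combination. The resveratrol libraries lay just below the control libraries, with a log2 fold change of -0.09 ± 0.03 (edgeR, Benjamini-Hochberg adjusted p = 0.0189). With the combination the value was -0.02 (95% interval -0.09 to 0.05) and did not pass the test. The protein and activity of MYC were not measured here, and the part of MYC in the members' falls was not tested.

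Markers of cell types also moved with the treatments. Of 9 epithelial markers, 5 fell and 2 rose with resveratrol and 4 fell and 3 rose with the combination, with 1 higher with EGCG. Many other genes moved too. The shares of all tested genes were 28.0% lower and 28.9% higher with resveratrol and 29.9% in either direction with the combination. With EGCG, 0.905% were higher. KRT5, a basal keratin, had log2 fold changes of -0.29 with resveratrol and -0.37 with the combination, whereas the desmoglein DSG3 (0.42 and 0.44) and the cadherin CDH1 (0.29 and 0.43) rose. Summed over the 15 markers of other cell types, the level was 128 to 154 CPM (counts scaled to a common library total) in the control, 105 to 126 with EGCG, 161 to 187 with resveratrol and 186 to 213 with the combination, nearly all of it COL1A1. COL1A1 fell with EGCG (-0.27) and rose with resveratrol (0.29) and the combination (0.48). Without COL1A1 the sum was 5.63 to 6.80 CPM in the control, 4.94 to 6.999 with EGCG, 5.77 to 8.57 with resveratrol and 4.94 to 9.27 with the combination, and these ranges overlapped. Of the other 3 that could be tested, PMEL, a melanocyte protein with few counts, rose with resveratrol (0.74 ± 0.32, SE) and the combination (1.01 ± 0.32), and COL1A2 and VWF did not pass the test in any comparison with the control. The part of these shifts in the members' falls was not tested.

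Some values rest on uncertain reads. The counting program, its strand setting and its handling of reads shared by genes are not given in the sources used here, so reads from a member and a gene that overlaps it cannot be told apart. On the opposite strand, POLR1C overlaps XPO5, YIPF3 and a processed pseudogene (a mean of 1453.5 counts for the pseudogene against 355.62 for POLR1C). RRN3 overlaps PDXDC1, GNL3 overlaps PBRM1 and GLT8D1, WDR12 overlaps NBEAL1, NOP16 overlaps HIGD2A and NHP2 overlaps RMND5B. NOP14 overlaps its antisense RNA NOP14-AS1 (a mean of 466 counts against 884 for NOP14). Opposite-strand genes with fewer counts overlap members too. On the same strand, UTP4 overlaps SNTB2, and PPAN overlaps P2RY11 and a readthrough gene. NOP2 also overlaps a protein-coding gene on its own strand (a mean of 0.12 counts against 134 for NOP2). NOP2 and PPAN had means of 134 and 104 counts per library, the lowest of the members, and the widest intervals.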

How the data were processed

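Total RNA of 24 samples of MDA686TU cells was made into stranded mRNA libraries by the authors. Per the labels, reads were demultiplexed with bcl2fastq 2.17.1.14, checked with FastQC 0.11.5, trimmed with Trimmomatic 0.36, aligned to GRCh38 with HISAT2 2.0.4 and handled with SAMtools 1.3.1, and DESeq2 1.20.0 was used. The authors deposited raw counts per gene, unpooled. The deposited normalized counts are a signal per gene that was checked to be raw counts over 1 size factor for each library. The deposited FPKM values were checked to be those normalized counts times 1 constant per gene. FPKM served only to compare levels between genes, and normalized counts to show values per library. The counting program and annotation release are not given in the sources used here, and gene positions are from GENCODE on GRCh38.

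The fit used edgeR 4.0.16 (R 4.3.3) on the raw counts of 24 libraries (TMM, filterByExpr, quasi-likelihood test), with 1 term per group. Of 60617 genes, 33693 had a count and 15476 were tested. A gene was called at an unadjusted p under 0.05 with a Benjamini-Hochberg adjusted p under 0.1. For single members, mean log2 CPM was compared in a two-sided exact permutation test (prior count 2), 924 arrangements. Intervals are at 95%. Totals were 7034872 to 11735574 counts, and counting error is larger for members with few counts. The steps were run on simulated counts with 200 changed genes, far fewer than were called here with resveratrol or the combination. That run does not cover changes as widespread as these.

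The members and the lists of other genes were chosen with earlier results of these data known, and some members are in gene sets that the study picked as lowered in these samples, so their direction is not independent evidence. All members may be named. Values per library are given for the 3 largest called changes per comparison, the 5 called with the smallest p in the combination against resveratrol and in the interaction, and the highest control FPKM in each role, with RRN3, RRP12 and DDX21 added after their values were seen. From each list of other genes, the 2 largest called rises and falls with the combination are named, and MYC in any case. The alternatives were DESeq2 1.42.0, other scalings and filters, an adjusted p under 0.05, only the groups compared, the replicate number as a block, the replicate sets, and each library left out in turn. Promoters are RefSeq's, on GRCh38.p14.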

Additional observations from a re-analysis of the deposited data

Results flagged for a closer look

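In 14 of 160 groups of 6 libraries (40 genes in 4 groups), 1 library lay far from the other 5 by Dixon's test on the normalized counts, where chance alone flags about 8. Combination replicate 3 was the library in 4 of them. It was low for DDX21, at 3969 against 4759 to 4810 in the other combination libraries, and for RRN3, at 764 against 848 to 897. It was high for UBTF, at 1680 against 1543 to 1594, and for BOP1, at 1723 against 1500 to 1567. Combination replicate 2 was low for POLR1A, at 1032 against 1168 to 1224, and for RRS1, at 419.7 against 475 to 505. Resveratrol replicate 6 was high for POLR1B, at 742 against 682 to 699, and for NOP2, at 134 against 108 to 117. The other resveratrol libraries that stood apart were replicate 2 for NOP58, at 1376 against 1278 to 1314, and replicate 4 for NOP14, at 880.3 against 817 to 836. With EGCG, replicate 4 was high for TCOF1, at 3343 against 3016 to 3080, and replicate 6 was high for GAR1, at 384 against 324 to 340. In the control, replicate 5 was high for POLR1C, at 402 against 343 to 362, and replicate 6 was high for RRP12, at 919 against 828 to 855.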

How the results depend on the processing

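With resveratrol, the combination, and the combination against EGCG, the number of members called stayed within 1.5 times of 38, 37 and 37 under every alternative run, and with a library left out it was 37 to 38, 36 to 37 and 35 to 38. With EGCG the 3 calls became 1 at an adjusted p under 0.05, 0 with all genes of at least 1 count in the test, 0 within each of the replicate sets, and 0 to 5 with a library left out. In the combination against resveratrol, the 7 calls became 4 in replicates 1 to 3, 0 in replicates 4 to 6 and 4 to 7 with a library left out. The cause was not tested; the replicate sets have fewer libraries. For the interaction the count was 0 in every alternative. With library size alone the members' medians moved to -0.22, -0.26 and -0.22 with resveratrol, the combination, and the combination against EGCG, and in replicates 4 to 6 the median with the combination was -0.30.

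No label says that a replicate number marks a shared culture or day, and of 36 correlations between same-numbered libraries of different groups only 2 exceeded 0.1 (range -0.01 to 0.13), so the numbers were not taken to pair the libraries. Against this, 15 of 36 were highest with the own number, where 6 would be without pairing, and 18 of 36 were highest among the 3 numbers of the same replicate set, where 12 would be. This is a hint from the data, not from the design. With the replicate number as a block, 3 members were called with EGCG, 38 with resveratrol, 37 with the combination, 8 in the combination against resveratrol, 38 in the combination against EGCG and 0 in the interaction. Over all genes, the calls with EGCG went from 273 to 84 and 85 within the replicate sets, and those of the combination against resveratrol from 1217 to 803 at an adjusted p under 0.05 and 399 in replicates 4 to 6. The interaction went from 41 calls (32 higher) to 69 by DESeq2, 92 (55 higher) with the wider filter, 85 with the block, 79 with the replicate set as a term, 6 in replicates 1 to 3 and 24 (15 higher) in replicates 4 to 6, and to 42 (28 higher) with library size alone. No called change of a single member reversed in any alternative. Fitting only the groups compared was not possible for the interaction. Low counts limit NOP2 and PPAN most. Both overlap genes on their own strand, and the parts of depth and of shared reads in these low counts were not tested.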
